A study of Mus musculus with 8 samples.

Results

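The genes described here are 10 early response genes, taken by name from the array's own annotation: *Egr1*, *Egr2*, *Egr3*, *Nr4a1*, *Nr4a2*, *Nr4a3*, *Ier2*, *Ier3*, *Btg2* and *Zfp36*. They are 10 of 37074 gene names on the array. The array carried 17 probes for them, of which 11 gave enough signal to be tested, so that 9 of the 10 genes were measured and *Egr3* was not. Signals came from tibialis anterior, a fast-twitch muscle of the lower leg, of male C57BL/6J mice that were 14 weeks old and, per the labels' protocols, ate the high-fat diet named High-fat diet 32. The control group held 4 samples, and the other 4 came from mice given *Porphyromonas gingivalis*, an anaerobic bacterium of the gum pocket, in 100 µL of saline by feeding needle during 6 weeks, starting when the mice were 8 weeks old. The sources used here do not give what the controls received or how many bacteria were used, and group names in the protocol (NCAa, HFAa) occur in no sample title. Each sample was taken as 1 mouse, which the labels leave unsaid, so p-values may measure only the spread between samples.

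Immediate early genes are transcribed within minutes of a stimulus, without new protein synthesis, from promoters already occupied by factors such as SRF and CREB, and their transcripts are short-lived. In skeletal muscle they respond to contraction, stretch, injury and adrenergic signals. EGR1, EGR2 and EGR3 are zinc finger transcription factors. NR4A1, NR4A2 and NR4A3 are orphan nuclear receptors that act without a known endogenous ligand and, in muscle, are linked to glucose and lipid metabolism. ZFP36 (tristetraprolin) binds AU-rich stretches of messenger RNA and hastens their decay, and BTG2 is an antiproliferative protein that recruits the CCR4-NOT deadenylase. IER2 is a nuclear regulator of transcription, and IER3 is a stress-induced protein that affects cell survival.

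The sequences below show the elements through which such genes are known to be induced and their transcripts destroyed. RefSeq promoter windows of mouse assembly GRCm38.p6 were found for 7 of the 10 genes, all but *Egr1*, *Egr3* and *Ier2*. Each printed window is the 250 bases before the annotated start, 5′ to 3′ on the gene's strand. Capitals mark the CArG box, which SRF binds, and the CREB half-site TGACG, on either strand (CGTCA when read on the opposite one). *Nr4a1* (chr15:101266596-101266845, plus strand), *Nr4a2* (chr2:57124004-57124253, minus strand) and *Nr4a3* (chr4:48045055-48045304, plus strand) are shown because all members of the family carry repeated half-sites, *Zfp36* (chr7:28379229-28379478, minus strand) for its CArG box, and a 30-base stretch of an *Egr2* window (chr10:67537793-67537822, plus strand) because it holds both motifs.
Nr4a1: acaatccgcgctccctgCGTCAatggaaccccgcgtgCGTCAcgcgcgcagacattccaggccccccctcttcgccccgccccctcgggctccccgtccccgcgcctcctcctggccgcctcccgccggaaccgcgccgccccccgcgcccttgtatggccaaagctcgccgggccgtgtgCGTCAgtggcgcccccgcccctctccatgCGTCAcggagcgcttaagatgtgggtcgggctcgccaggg
Nr4a2: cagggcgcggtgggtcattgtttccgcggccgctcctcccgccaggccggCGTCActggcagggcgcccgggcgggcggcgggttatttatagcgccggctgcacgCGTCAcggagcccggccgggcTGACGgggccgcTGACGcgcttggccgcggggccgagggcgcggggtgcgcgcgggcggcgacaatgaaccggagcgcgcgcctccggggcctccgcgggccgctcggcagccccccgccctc
Nr4a3: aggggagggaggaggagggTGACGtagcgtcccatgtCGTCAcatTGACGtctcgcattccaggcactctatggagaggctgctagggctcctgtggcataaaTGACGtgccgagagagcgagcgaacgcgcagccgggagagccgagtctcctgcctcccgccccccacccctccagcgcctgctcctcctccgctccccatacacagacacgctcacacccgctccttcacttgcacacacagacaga
Zfp36: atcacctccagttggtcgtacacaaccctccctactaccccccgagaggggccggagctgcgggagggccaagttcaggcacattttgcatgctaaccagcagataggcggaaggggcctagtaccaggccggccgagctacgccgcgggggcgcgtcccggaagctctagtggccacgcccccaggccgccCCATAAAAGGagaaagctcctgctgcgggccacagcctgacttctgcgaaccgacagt
Egr2: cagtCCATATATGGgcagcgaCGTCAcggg

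Each of the *Nr4a* windows held TGACG 4 times, in either orientation. Of 32851 promoter windows searched, 17.8% held it at least once and 45 (0.137%) held it at least 4 times. The window of *Btg2* held the full palindrome TGACGTCA 166 bases before the start, which contains the half-site on both strands, and 1.55% of windows held that palindrome. A CArG box began 58 bases before the start of *Zfp36*, and 1.47% of windows held one. The window of *Ier3* held neither motif. The EGR site GCGNGGGCG was in the windows of *Nr4a1*, *Nr4a2*, *Btg2* and *Zfp36* and in 4.70% of all windows. These are matches of letters in windows of fixed length and were not measured as binding.

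Some of the array's 60-base probes themselves lie across AU-rich stretches, the kind of element that ZFP36 recognises. The stretches below, 30 bases of each probe in the sense of the transcript, have the pentamer ATTTA in capitals.
Zfp36: ATTTAtgacgactttATTTAttgtattaag
Ier3: acacagatATTTAttacgATTTAtagggtc
Nr4a2 (second probe): ggcagaggcttgtaaATTTAtccaatgcag

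The *Zfp36* probe (chr7:29161963-29162022 on mm9, minus strand) held the pentamer 3 times, of which 2 fall in the printed bases 22 to 51. The *Ier3* probe (chr17:35959528-35959587, plus strand) held it 2 times and the second *Nr4a2* probe (chr2:56960000-56960059, minus strand) 1 time, which is shown because its groups did not overlap. Of the other tested probes, the *Egr1* probe and the second *Btg2* probe held it 1 time each. Across the array, 8.08% of 56605 probes held ATTTA, and the longer TATTTAT was in 1.08%. Positions are those given with the probes on the mm9 build, for which no annotation of exons was used here.

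Signals are given as log2 of the processed intensity relative to the 75th percentile of the same array, so that 0 is the level at that percentile, and a difference is *P. gingivalis* minus control. Levels of different probes depend on the probe and are not set against each other. None of the 9 measured genes passed limma's test at an adjusted p under 0.05, and neither did any other probe (0.0% of 31649 tested probes). At an unadjusted p under 0.05 there were 3544 probes, 6.36% of tested probes lower with *P. gingivalis* and 4.84% higher. By their representative probes, 6 of the 9 genes had a lower mean with *P. gingivalis*, with a median difference of −0.04, and 0 reached an unadjusted p under 0.05. Over all 21307 gene names tested, 54.6% were lower and the median was −0.02. All 9 representative probes were well above background on all 8 arrays, and in all 9 the groups overlapped.

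The arrays themselves set limits to these comparisons. The 75th percentile of the processed signal was 275 to 306 on the control arrays and 238 to 255 on the *P. gingivalis* arrays, and it was subtracted. All controls lay in row 1 of the slide and all *P. gingivalis* samples in row 2, so the effect of the slide row and that of the group cannot be told apart. The authors' deposited value table, matched to the scanner files over probes, put only 4 of its 8 columns in the same group as the scanner files did. Read in label order, its columns followed the slide position by position down each slide column, whereas the scanner files' labels ran along each slide row. The table's controls thus lay in slide columns 1 and 2 and its treated samples in slide columns 3 and 4. With its groups, the effects of slide column and group cannot be told apart either. Control 1, control 2, *P. gingivalis* 3 and *P. gingivalis* 4 have the same group in both sources. Which source is right could not be settled, so samples are grouped here as in the scanner files, with values for the table's groups where they matter.

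**Figure D1:**
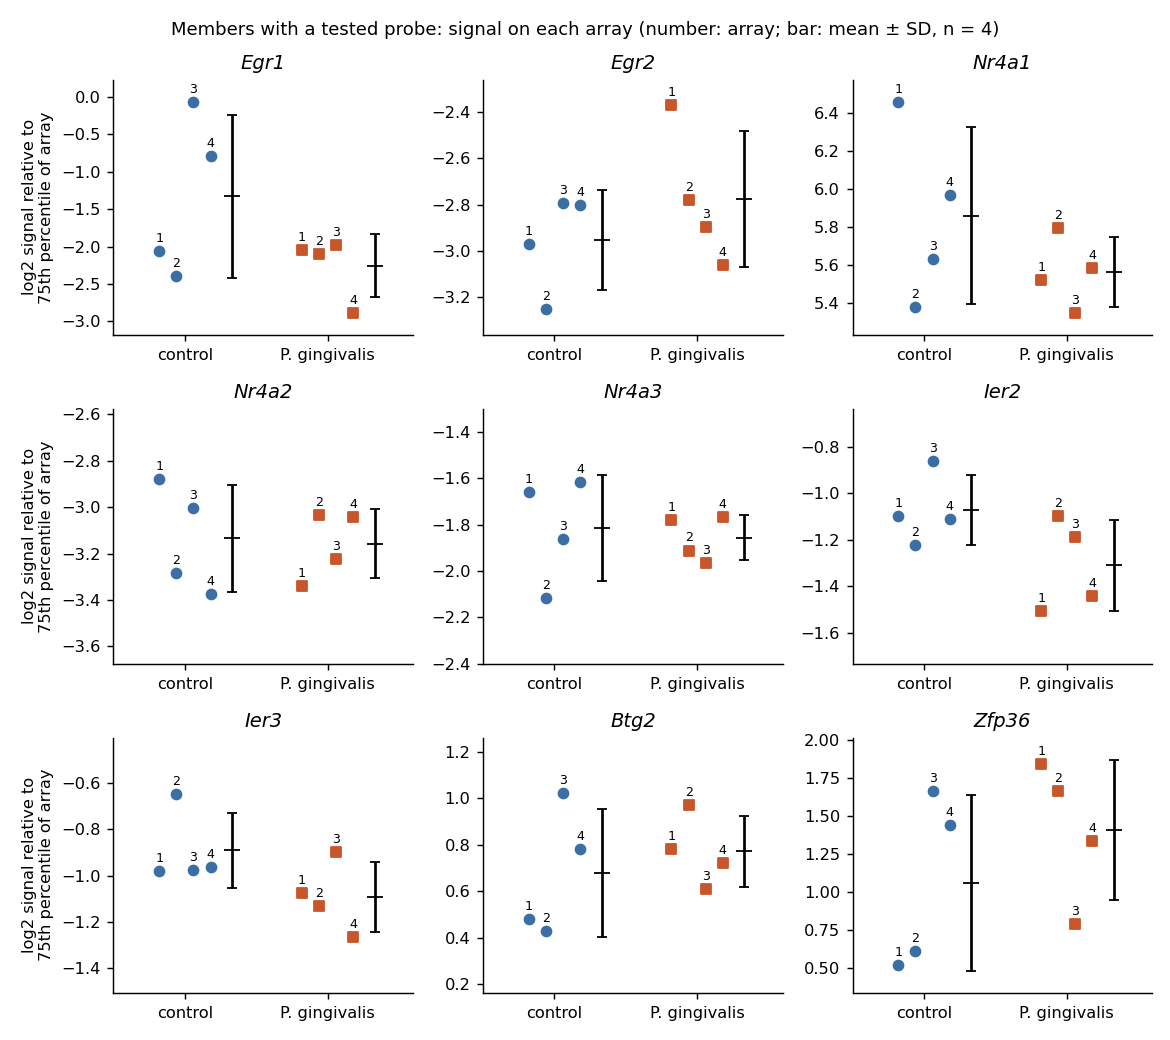
Signal of the 9 measured genes on each array, as log2 relative to the 75th percentile of the array (vertical axes, each with its own range), for control (circles) and *P. gingivalis* (squares) samples numbered 1 to 4, with the group mean ± SD (n = 4). The groups overlap in every panel, and *Egr1* of control 3 and control 4 stands above the other 6 arrays.

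*Egr1* had the widest spread of the EGR genes and the largest mean difference among the representative probes. It read −2.06, −2.39, −0.07 and −0.79 in controls 1 to 4 and −2.05, −2.10, −1.98 and −2.89 in *P. gingivalis* samples 1 to 4. Control 3 and control 4 were high, *P. gingivalis* 4 was lowest, and the other 5 samples lay close together, so that the groups overlapped. The control mean was 1.90-fold the *P. gingivalis* mean (95% confidence interval 0.863 to 4.18), a log2 difference of −0.93 ± 0.50 (SE, n = 4 per group), which did not pass the test (limma adjusted p = 0.513; two-sided exact permutation p = 0.257, where 0.0286 is the smallest possible). Without control 3 the difference was −0.51, and without control 2 it was −1.28. After another background correction, normexp, it kept its sign but was smaller, at −0.46 beside −0.93. With the value table's groups it turned to 0.72 ± 0.54 (SE, adjusted p = 0.9999), because control 3 and control 4 then count among the treated. In the 4 samples on which both sources agree it was −0.21 (limma adjusted p = 0.849). The within-group SD of *Egr1*, 0.824, stood at the 99.4th percentile of all gene names, whose median was 0.139. Its probe is at chr18:35024395-35024454 on mm9, plus strand.

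*Egr2* did not share this pattern. Its probe (chr10:67004758-67004817 on mm9, plus strand) read −2.97, −3.25, −2.79 and −2.80 in the controls and −2.37, −2.78, −2.90 and −3.06 with *P. gingivalis*. *P. gingivalis* 1 was highest and control 2 lowest, with the other samples between them. The difference was 0.18 ± 0.16 (SE, limma adjusted p = 0.697) and had the opposite sign, −0.04, with the value table's groups. It was 0.042 without *P. gingivalis* 1, 0.077 without control 2 and 0.27 without *P. gingivalis* 4. *Egr3* had 3 probes, which were well above background on 0, 0 and 1 of the 8 arrays, the last a control, so no difference is given for it. In a whole-muscle extract, fewer cells of a type and less RNA per cell cannot be told apart, and this holds for every gene here.

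*Nr4a1* encodes the receptor also called NUR77, which responds to exercise and adrenergic signals in muscle. Its probe (chr15:101105071-101105130 on mm9, plus strand) read 6.46, 5.38, 5.63 and 5.97 in the controls and 5.52, 5.79, 5.35 and 5.59 with *P. gingivalis*. Control 1 was highest, and the *P. gingivalis* samples lay within the range of the controls apart from *P. gingivalis* 3, the lowest. The means were 5.86 ± 0.46 (SD) and 5.56 ± 0.18, a difference of −0.30 ± 0.22 (SE, limma adjusted p = 0.628). It was −0.10 without control 1, −0.46 without control 2, −0.45 in the 4 samples with 1 group in both sources and −0.15 with the value table's groups.

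*Nr4a2* was read by 2 tested probes that differed. The representative probe (chr2:56960699-56960758 on mm9, minus strand) lay between −3.37 and −2.88 in controls and between −3.34 and −3.03 in treated samples, a difference of −0.02 ± 0.13 (SE, limma adjusted p = 0.962). The second probe, whose AU-rich stretch is printed above, read −3.58, −3.30, −3.49 and −3.60 in the controls and −4.28, −3.98, −3.71 and −4.01 with *P. gingivalis*. Every *P. gingivalis* sample was below every control on this probe. It was the only one of the 11 tested probes whose groups did not overlap in that direction (3.66% of all tested probes), and 0 of 11 were separated the other way (3.01% of all tested probes).

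On the second *Nr4a2* probe the control mean was 1.42-fold the *P. gingivalis* mean (95% confidence interval 1.16 to 1.74), a log2 difference of −0.51 ± 0.13 (SE, n = 4 per group). It was also the only one of the 11 below an unadjusted p of 0.05, and it did not pass the adjusted test (limma adjusted p = 0.323). Its two-sided exact permutation p was 0.0286, which no arrangement of 4 against 4 samples can go below. The probe was dim, with processed intensities of 12.9 to 31.2. The difference was 0.03 after another background correction (normexp, which adds an offset of 50), 0.08 with the value table's groups and −0.43 in the 4 samples with 1 group in both sources. *Nr4a3* (chr4:48064521-48064580 on mm9, plus strand) lay between −2.12 and −1.62 in controls and between −1.97 and −1.77 in treated samples, a difference of −0.04 ± 0.12 (SE, limma adjusted p = 0.915). Its 2 other probes were above background on 1 and 2 of the 8 arrays and were not tested.

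The IER genes were lower on average with *P. gingivalis* by less than the test could call. *Ier2* read −1.10, −1.22, −0.86 and −1.11 in the controls and −1.51, −1.10, −1.19 and −1.44 with *P. gingivalis*. Control 3 was highest, *P. gingivalis* 1 and *P. gingivalis* 4 were below every control, and the other 2 treated samples lay within the control range. The difference was −0.24 ± 0.12 (SE, limma adjusted p = 0.482), and 0.08 with the value table's groups. Only 35 of the probe's 60 bases are covered by its listed position, chr8:87185211-87185245 on the minus strand of mm9. A further *Ier2* probe was above background on 1 array of each group and was not tested.

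*Ier3* read −0.98, −0.65, −0.98 and −0.96 in the controls and −1.08, −1.13, −0.90 and −1.26 with *P. gingivalis*. Control 2 was high, 3 treated samples were below every control, and *P. gingivalis* 3 was above 3 controls. The difference was −0.20 ± 0.11 (SE, limma adjusted p = 0.511), −0.12 without control 2, and −0.07 with the value table's groups. Both IER genes had a spread close to that of most genes, with within-group SDs at the 62.3rd and 56.6th percentiles of all gene names for *Ier2* and *Ier3*.

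*Zfp36* and *Btg2*, which both act on messenger RNA decay, had higher means with *P. gingivalis* and did not pass the test. *Zfp36* read 0.52, 0.61, 1.66 and 1.44 in the controls and 1.84, 1.66, 0.79 and 1.33 with *P. gingivalis*. Control 1, control 2 and *P. gingivalis* 3 were low and the other 5 samples were high, so the split ran through both groups. The difference was 0.35 ± 0.32 (SE, 95% confidence interval −0.38 to 1.075, limma adjusted p = 0.697). The within-group SD, 0.523, was at the 96.6th percentile of all gene names. The difference ran from 0.17 without control 1 to 0.55 without *P. gingivalis* 3, and it was 0.15 with the value table's groups. It was 0.20 without control 2 or without *P. gingivalis* 1, and 0.55 without control 3.

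*Btg2* had 2 tested probes that gave like differences. The representative one (chr1:135972094-135972153 on mm9, minus strand) read 0.48, 0.43, 1.02 and 0.78 in the controls and 0.78, 0.97, 0.61 and 0.72 with *P. gingivalis*. Control 1 and control 2 were lowest and control 3 highest, with all treated samples inside the range of the controls. The difference was 0.09 ± 0.14 (SE, limma adjusted p = 0.831), and 0.03 ± 0.16 on the second probe (adjusted p = 0.963). On the representative probe it was 0.0095 without control 2, 0.026 without control 1 or without *P. gingivalis* 2, 0.15 without *P. gingivalis* 3 and 0.21 without control 3. Control 3 was the highest array for *Egr1*, *Ier2* and *Btg2*, 3 of the 9 measured genes, whereas it was the highest for 8.15% of all gene names. It was not highest for *Egr2*, *Ier3*, *Zfp36* or the *Nr4a* genes.

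**Figure D2:**
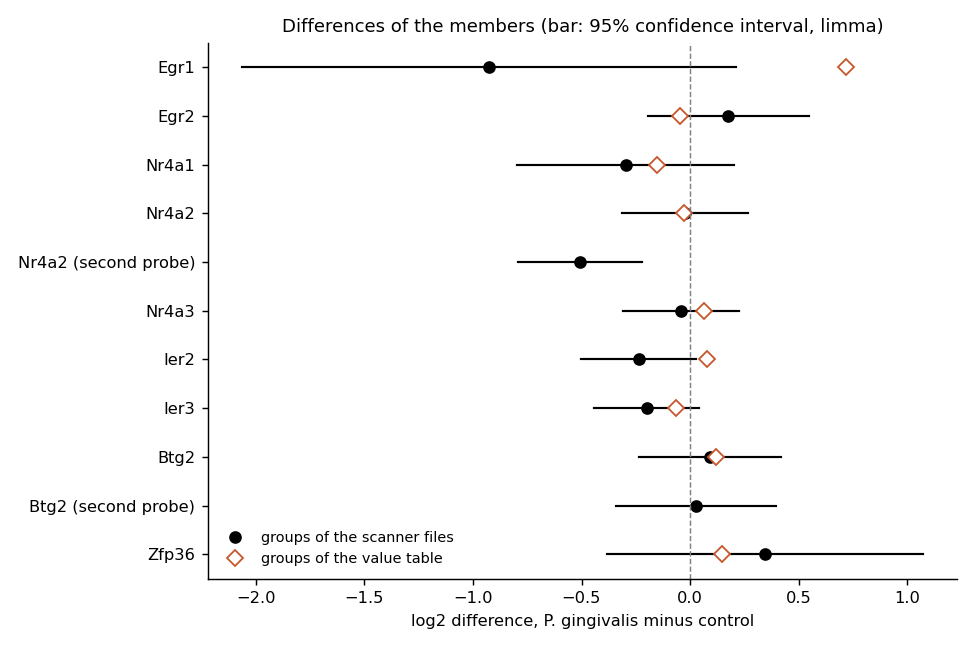
Difference of each measured gene, *P. gingivalis* minus control on the log2 scale (horizontal axis), by the scanner files' groups with its 95% confidence interval from limma (filled circles and bars, n = 4 per group) and by the value table's groups for representative probes (open diamonds). The interval of the second *Nr4a2* probe alone leaves out 0, and the diamond of *Egr1*, at 0.72, lies on the other side of 0 from its circle at −0.93.

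Other immediate early genes, a list that adds the FOS, JUN, DUSP and KLF families among others, were measured for 38 of 42. Lower means with *P. gingivalis* were found for 28 and higher ones for 10, with a median difference of −0.13 beside −0.02 for all gene names. Of all gene names, 54.6% were lower. An unadjusted p under 0.05 was reached by 6 lower and 1 higher gene, where 10.9% of all gene names reached it in either direction, and 0 passed the adjusted test. The AP-1 subunits *Jund* (−0.32, adjusted p = 0.323) and *Junb* (−0.28, adjusted p = 0.323) and the kinase gene *Plk2* (−0.27, adjusted p = 0.375) were lower in all treated samples than in all controls. Of all tested probes, 3.66% were separated in this direction. *Fosb* (−0.56, adjusted p = 0.350), the nuclear IκB gene *Nfkbiz* (−0.57, adjusted p = 0.360) and *Klf4* (−0.27, adjusted p = 0.435) were the other lower ones. The transcriptional repressor gene *Nfil3* was the higher one (0.50, adjusted p = 0.378). With the value table's groups the sign turned for *Jund* (0.05), *Fosb* (0.22) and *Klf4* (0.12). It held for *Junb* (−0.04), *Plk2* (−0.10), *Nfkbiz* (−0.27) and *Nfil3* (0.16), all at smaller values.

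The upstream regulators, 23 genes for SRF, its ternary complex partners, CREB, MEF2 and the ERK kinases, were all measured. They split into 13 lower and 10 higher with a median of −0.02, the same as for all gene names to this precision. *Hdac5*, a class IIa deacetylase that represses MEF2, was the only one at an unadjusted p under 0.05 (−0.19, adjusted p = 0.367), and all treated samples were below all controls. Such a separation was found for 3.66% of all tested probes. The lowest p after that of *Hdac5* were those of *Elk3* (−0.20, adjusted p = 0.472) and *Atf1* (−0.16, adjusted p = 0.477). *Hdac5* was 0.05, *Elk3* 0.20 and *Atf1* −0.11 with the value table's groups.

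Relatives and partners of the described genes, such as the EGR corepressor NAB2, the RXR partners of NR4A and the CCR4-NOT subunits, were measured for 17 of the 18 found on the array. Lower means were seen in 14 and higher ones in 3, with a median of −0.07, where 54.6% of all gene names were lower. *Zfp36l1*, a close relative of *Zfp36*, was the only one at an unadjusted p under 0.05 and was higher with *P. gingivalis* (0.35, adjusted p = 0.386). *Tob2* (−0.23, adjusted p = 0.553) and *Cnot8* (−0.12, adjusted p = 0.562) had the next lowest p. *Zfp36l1* was 0.09, *Tob2* −0.06 and *Cnot8* 0.06 with the value table's groups.

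Of 13 transcripts reported as decay targets of ZFP36, 7 were measured, 6 lower and 1 higher, with a median of −0.28. *Cxcl1* entered this count through its controls alone, and the other 6 were 5 lower and 1 higher, with a median of −0.23. Over all gene names, 54.6% were lower and the median was −0.02. *Myc* is also in the list of other immediate early genes, and *Ier3*, described above, is not counted here. The chemokine gene *Cxcl1* had signal well above background in all 4 controls and in 0 of the 4 *P. gingivalis* samples. Its level in the controls was 2.23-fold higher, taking the dimmest signal well above background, or the probe's own where higher, for each treated array. This value depends on that choice of floor and has no interval. The limma fit, which used the treated values although they were not above background, gave *Cxcl1* an adjusted p of 0.309, which is no test of that fold value. The adhesion molecule gene *Icam1* was lower in every treated sample than in every control (−0.58, adjusted p = 0.323), as were 3.66% of all tested probes. The chemokine gene *Ccl2* differed by −0.80 ± 0.45 (SE, adjusted p = 0.532) and was above background on 3 of the 4 treated arrays. With the value table's groups *Icam1* differed by 0.05 and *Ccl2* by −0.91. For *Cxcl1* the fitted difference was −1.73 with the scanner files' groups and −0.27 with the value table's. Both fits used values that were not above background.

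All 16 muscle metabolic genes reported under NR4A control were measured, 6 lower and 10 higher, with a median of 0.03. The mitochondrial carrier genes *Ucp2* (0.39, adjusted p = 0.356, all treated samples above all controls) and *Ucp3* (0.26, adjusted p = 0.401) reached an unadjusted p under 0.05. These were 2 of the 16, where 10.9% of all gene names reached it in either direction. All treated samples were above all controls for 3.01% of tested probes. *Bpgm* (0.11, adjusted p = 0.546) was the next in order of p. With the value table's groups *Ucp2* and *Ucp3* had the opposite sign, at −0.09 and −0.06.

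**Figure D3:**
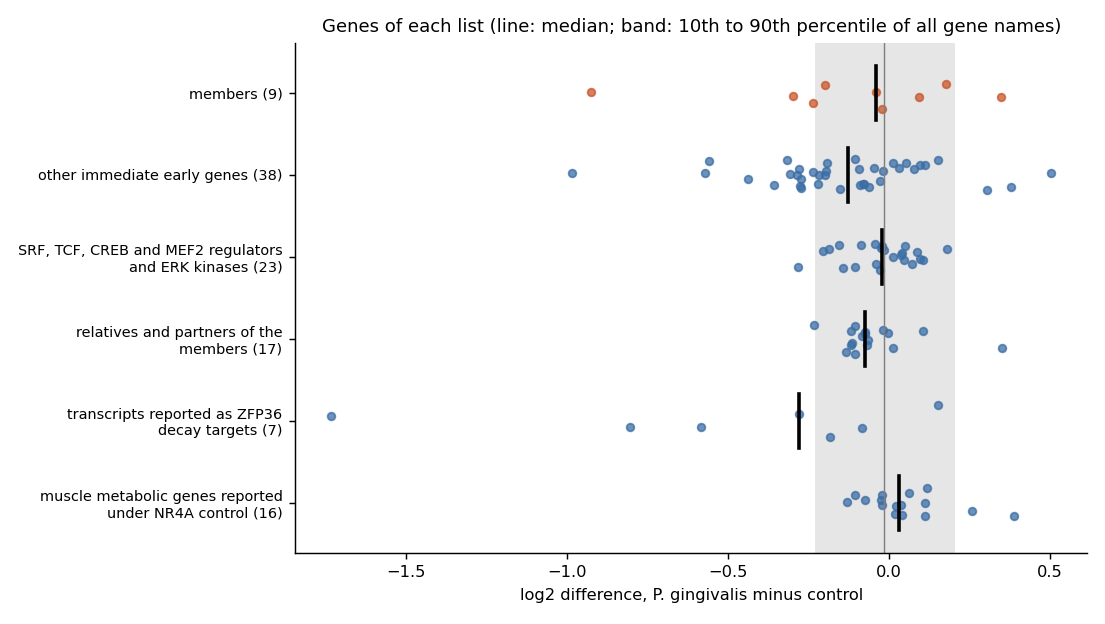
Difference of each measured gene in the 6 lists, *P. gingivalis* minus control on the log2 scale (horizontal axis, n = 4 per group), with a black line at each list's median, a grey line at the median of all 21307 gene names and a band from their 10th to 90th percentile. The list medians run from −0.28 for reported ZFP36 targets to 0.03 for muscle metabolic genes, and the leftmost point, *Cxcl1*, rests on treated arrays that were not above background.

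Markers of muscle fibres were strong on all arrays, and the means of several other marker lists lay to one side with the group, although none of their genes passed the adjusted test. All 10 muscle fibre markers were measured, and 2 of them had lower means with *P. gingivalis* (median difference 0.09). Their summed linear level relative to each array's 75th percentile was 6405 to 7106 in controls and 7071 to 7302 with *P. gingivalis*, so the sums overlapped. All 7 fibroblast markers had higher means with *P. gingivalis*, 4 of them at an unadjusted p under 0.05, which 10.9% of all gene names reached. Their sums overlapped, at 242 to 321 in controls and 307 to 364 treated. Higher means were also found for 6 of 7 mural and smooth muscle markers, whose sums did not overlap (311 to 344 and 351 to 385). All 4 measured tendon markers were higher too, with sums that did not overlap either (19.1 to 27.4 and 27.7 to 35.7). With the value table's groups the sums of both lists overlapped. They were then 311 to 385 in controls and 336 to 361 treated for mural markers. For tendon markers they were 19.1 to 32.8 and 27.0 to 35.7. The sums overlapped for macrophages, with 6 of 7 markers higher (7.99 to 10.99 and 10.7 to 15.2), and for mast cells, with 5 of 5 higher (1.88 to 3.35 and 2.70 to 4.13). All 8 endothelial markers had lower means (35.6 to 41.9 and 28.1 to 37.2), as did all 4 measured satellite cell markers (6.14 to 6.45 and 5.69 to 6.26, with *Myf5* not above background). All 5 measured neutrophil markers had lower means too, and the granule genes *Ngp* and *Ltf* were not above background. The neutrophil sums overlapped, at 0.627 to 3.58 in controls and 0.497 to 0.668 treated. Whether any of the 5 was above background in the controls alone, which would fix its direction, was not examined. The markers of lymphocytes (3 of 4 measured lower, with *Cd3g* and *Cd79a* not above background), adipocytes (1 of 5 lower), erythroid cells (3 of 5 lower) and Schwann cells (3 of 5 lower) had overlapping sums. In control 3, where *Egr1* was highest, the neutrophil sum was 0.627, the lowest of the controls. In control 4, where *Egr1* was next highest, it was 3.58, the highest of all arrays. Among the controls, control 3 and control 4 had the highest sums for fibroblasts, mural cells, tendon, macrophages, mast cells, endothelium and erythroid cells. For muscle fibres, neutrophils, lymphocytes, adipocytes, Schwann cells and satellite cells they did not. The fibroblast sums were 321 and 294 in controls 3 and 4, and 259 and 242 in controls 1 and 2. The part of these cell types in the values of the early response genes was not tested.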

How the data were processed

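Labelled cRNA was made from 200 ng of RNA per sample with the dye Cy3, per the labels' protocols, and hybridised to 8 arrays of 1 slide, read in 1 scan. The authors' deposited intensity values are Agilent Feature Extraction processed signals (version 11.0.1.1 per the file headers, 11.1 per the submitters' processing notes), background-subtracted and not normalized between arrays. The authors' deposited value table holds log2 signals of 24764 probes, with column medians of 7.357 to 7.374. Its scaling is not given in the sources used here, and it was used only for alternatives. Its columns were matched to the scanner arrays by correlation over probes (0.833 to 0.88 for the best match, at most 0.0784 for the next).

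Log2 intensities were set relative to each array's 75th percentile. Control spots and outlier spots (0.108% to 0.218%) were left out. On each array 56.3% to 59.3% of spots exceeded background clearly, and 0 were saturated. Of 56605 probes, the 31649 well above background on at least 4 arrays were tested. Each gene is given by its brightest tested probe, under the array's own gene name or accession. The 2 groups were set against each other in limma 3.58.1 (R 4.3.3) by lmFit and eBayes without covariates, which was tested on simulated data. P-values were adjusted by Benjamini-Hochberg across the tested probes, with 0.05 as the threshold. Exact permutation tests used all 70 assignments of the arrays. The precision of an array study is limited by the number of arrays.

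The genes and lists were chosen with earlier results of these data known. All 10 genes are named, and of each pathway list those at an unadjusted p under 0.05, filled to 3 by lowest p. Cell type lists are given as counts and summed levels. Alternatives varied the scaling, background correction, filter, variance trend, probe summary, replicate block, groups and arrays.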

Additional observations from a re-analysis of the deposited data

Results flagged for a closer look

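In 22 groups of 4 arrays (11 tested probes, each in both groups), 2 values lay far from the rest of their group, where chance alone marks about 1 in 20 groups. *Egr1* in *P. gingivalis* 4 was −2.89, with a gap to the next sample of 0.868 of the group's range. *Ier3* in control 2 was −0.65, with a gap of 0.944 of the range.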

How the results depend on the processing

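Under all 20 alternatives, 8 of them leaving out 1 array, 0 of the measured early response genes passed an adjusted p of 0.05. Over all probes or genes, 14 passed with normexp, 2 each with a variance trend and without a filter, and 1 with the value table's columns matched to the scanner files. The number of early response genes with a lower mean was 3, beside 6, with the value table under its own labels and ran from 4 to 6 with 1 array left out. Their median difference was −0.20 with the mean of a gene's tested probes and −0.12 to 0.01 with 1 array left out. Same-numbered arrays did not deviate together (correlations of 0.0629, 0.0333, 0.0069 and 0.0086). With the replicate block 0 genes were called, and the second *Nr4a2* probe had an adjusted p of 0.434.

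*Zfp36*, *Btg2* (representative probe), *Nr4a1* and *Ier3* kept their direction in all 20. Directions turned as follows, and the cause was not tested. With the value table's groups, *Egr1* was 0.72, *Egr2* −0.044, *Nr4a3* 0.063, *Ier2* 0.080, the second *Nr4a2* probe 0.081 and the second *Btg2* probe −0.032. With the table's values under its own labels, *Egr1* was 0.63, *Egr2* −0.063, *Nr4a2* 0.024, *Nr4a3* 0.044 and *Ier2* 0.11, and with its columns matched *Nr4a3* was 0.019. With normexp, *Nr4a2* was 0.079, *Nr4a3* 0.059 and the second *Nr4a2* probe 0.027. *Nr4a2* was 0.0089 with median scaling and 0.0037 with quantile normalization. In the 4 samples with 1 group in both sources, *Nr4a3* was 0.021 and the second *Btg2* probe −0.0035. With 1 array left out, *Nr4a2* ran from −0.10 to 0.062, *Nr4a3* from −0.14 to 0.023 and the second *Btg2* probe from −0.072 to 0.14. An unadjusted p under 0.05 was reached by *Egr1* with a variance trend and without control 2, *Nr4a2* with the mean of its probes, *Egr2* with normexp, *Ier2* without *P. gingivalis* 2 and *Ier3* without *P. gingivalis* 3. With the main settings, 10.9% of all gene names reached it. The share in each alternative was not counted, so these are not read as results. Dim signal limits *Egr3*, which could not be measured, and the second *Nr4a2* probe. The representative *Nr4a2* probe (processed intensities of 24.8 to 39.5) and the *Egr2* probe (29.9 to 48.3) were also dim. The *Egr1* probe went down to 33.7.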
